A study of Mus musculus with 2 samples.

Results

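Lactate dehydrogenase interconverts pyruvate and lactate, and the monocarboxylate transporters (MCTs) carry both acids across the plasma membrane together with a proton. Mature β cells normally keep Ldha and Slc16a1 silent, which is why these genes are called disallowed: with little of either enzyme or transporter, pyruvate made from glucose goes to the mitochondria, and circulating pyruvate or lactate does not trigger insulin release. Rfx6 is a winged-helix transcription factor of islet cells, and Rfx proteins bind the X-box, a pair of inverted half-sites with a short spacer.

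The genes described here are the lactate dehydrogenase genes Ldha, Ldhb and Ldhc and the transporter genes Slc16a1, Slc16a3 and Slc16a7, 6 of the 22367 protein-coding genes annotated on chromosomes 1 to 19, X and Y. They were chosen by name and function, without a threshold on any binding value, but with earlier results of these data known. Binding came from chromatin immunoprecipitation with sequencing (ChIP-seq) with the anti-HA antibody 12CA5 in Min6b1, an insulin-secreting mouse β cell line kept in 25 mM glucose. The cells had been transfected with 24 μg of a plasmid that expresses 3HA-Rfx6, and were collected 2 days later, so the protein precipitated is a tagged form added to whatever Rfx6 the line makes itself. The control was the same antibody in cells whose cell type label reads Min6b1 only, although the growth text of both samples describes the transfection, so how the control cells were treated is not settled by the labels. Each condition was 1 library, so no value has a replicate error, no test between groups could be run, and the intervals given cover counting error only. After MACS kept 1 read per position, 33949757 reads of the 3HA-Rfx6 library (68.7%) and 3567375 of the control (21.1%) remained. From these reads 23308 peaks were called. A peak was given to a gene when its summit, the base of highest signal, lay in the gene or within 50 kb of either end. Coordinates are mm9 (NCBIM37) and genes are those of GENCODE M1. The peak list holds no expression, so the cell type could not be checked against its markers.

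All 6 genes had a peak by this rule, as did 67.8% of all protein-coding genes, so the presence of a peak does not set them apart. They differed in number, size and place of the peaks. Slc16a1 had 5 peaks, Ldha 3, Ldhc 2, and Ldhb, Slc16a3 and Slc16a7 had 1 each. These are 11 distinct peaks, because Ldha and Ldhc lie head to tail 5.58 kb apart on chromosome 7 and share 2 of them. Read numbers ran from 41 to 209 with a median of 80, against a median of 73 for all peaks. Fold enrichments ran from 4.94 to 35.1 with a median of 9.21, against 8.54 for all peaks. The false discovery rates (FDR) that MACS gave them were 1.90% to 5.48%, and only 10 peaks of the whole list had 1% or less. The lowest rate was at the peak with the fewest reads (Ldhb, 41) and the highest at that with the most (Slc16a1, 209). Among these peaks the rate is therefore no guide to strength.

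Sequence at the summits was compared with the X-box written as the half-site GTTGCC, a spacer of 0 to 3 bases, and the half-site GGCAAC, which reads the same on both strands. The match with the fewest mismatches over these 12 bases was taken from the 200 bp around each summit. The matches below lie at the summits that carry the main signal of Ldha, Slc16a1, Slc16a3 and Slc16a7. Capitals mark the bases aligned with the half-sites, and 8 bases of mm9 stand on each side, on the plus strand of the chromosome. The matches at the Slc16a1 peaks of 140 and 209 reads have 4 mismatches. As few were found in 75.4% of 200 bp windows placed 1 kb to the right of the summits. This share was 20.2% for the 3 mismatches at Slc16a1 intron 1 and Slc16a3, and 2.15% for the 2 at Ldha and Slc16a7.
Ldha and Ldhc, 80 reads: gcctggcaGTTCCCttGGGAACtgttaaga
Slc16a1 intron 1, 150 reads: ggagccgcGTGGCCCGGAACgtggcgtg
Slc16a1 downstream, 140 reads: ttcgacagATTTCCtAGCAGCtgtttccc
Slc16a1 downstream, 209 reads: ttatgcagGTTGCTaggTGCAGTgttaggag
Slc16a3, 68 reads: cgggccacGTTACCatAGCGACtggagtca
Slc16a7, 104 reads: aggattctGTTGCCaaGGGAAGgtgaccag

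Ldha (ENSMUSG00000063229.7) encodes the A (muscle) subunit, which is usually linked with lactate production from pyruvate. The gene occupies chromosome 7 from 54096845 to 54110997 (plus strand), and its 9 transcripts begin at 7 positions. All of its peaks were upstream of every one of these starts, and none of the summits lay inside the gene. The peak from 54090230 to 54091477 held 80 reads (95% exact Poisson interval 63.4 to 99.6), with a fold enrichment of 12.6. Its summit at 54090879 was 5.97 kb from the most upstream start, that of Ldha-003, 10.3 kb from the start of Ldha-001 and 12.0 kb from the most downstream start, that of Ldha-008. The second peak, from 54093988 to 54095028, held 46 reads (33.7 to 61.4) with a fold enrichment of 5.18. Its summit was 3.64 kb closer to the gene, 2.32 kb upstream of Ldha-003 and 6.69 kb upstream of Ldha-001. Both summits were intergenic, and the intervals of the read numbers do not overlap. Of the whole list, 27.2% reached the fold enrichment of the stronger peak and 44.3% its read number. For the 46-read peak these shares were 90.3% and 83.6%, which places it near the low end of the list.

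The third Ldha peak, from 54050614 to 54052020, belonged by position to other genes. Its summit was 45.5 kb upstream of Ldha, in an untranslated exon of Hps5 (a subunit of a lysosome-related organelle complex), and 14 bp from the start of Hps5-002, close to where Gtf2h1 (a TFIIH subunit) starts on the other strand. It held 67 reads (51.9 to 85.1) with a fold enrichment of 4.94. The 80-read peak also had a nearer coding start than Ldha. The start of the predicted gene Gm5331 was 3.05 kb away. Among the 3 peaks, only that of 46 reads had Ldha as its nearest protein-coding start.

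The sequence at the 80-read peak carried the match GTTCCCttGGGAAC at 54090864 to 54090877, 2 bp from the summit. It differed from the X-box by G4C and C9G, with positions counted from 1 over the 12 half-site bases and the spacer left out. Thus each half-site had 1 mismatch, and the match is itself a perfect inverted repeat. As few mismatches were found in 19.8% of all peaks, and in 2.15% of windows of the same length 1 kb to the right of the summits. The 200 bp around this summit, chromosome 7 from 54090779 to 54090978, read as follows with the half-sites in capitals, since this is the summit nearest to Ldha that combines a high fold enrichment with a close match.
Ldha summit window: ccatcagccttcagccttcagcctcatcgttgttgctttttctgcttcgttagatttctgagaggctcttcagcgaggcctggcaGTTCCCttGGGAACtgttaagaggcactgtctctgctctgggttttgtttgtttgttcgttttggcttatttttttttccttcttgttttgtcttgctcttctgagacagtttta

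This window was 44.5% G and C, and 94.4% of peaks had at least that share. At the 46-read peak the best match had 3 mismatches, all in the left half-site, and lay 83 bp from the summit, near the edge of the window. At the Hps5 peak it had 3 mismatches and lay 81 bp away. Of the 3 Ldha peaks, that of 80 reads was therefore the one with its best match close to the summit.

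Ldhc (ENSMUSG00000030851.7), the testis form of the enzyme, lies downstream of Ldha on the same strand, from 54116573 to 54133512. Both of its peaks were the shared ones upstream of Ldha. Their summits were 25.7 and 22.1 kb upstream of Ldhc-001, beyond the whole Ldha gene, so the list gives no peak between Ldha and Ldhc and none inside Ldhc. The rule counts these peaks for both genes, and the values cannot assign them to either.

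Ldhb (ENSMUSG00000030246.5) encodes the B (heart) subunit and occupies chromosome 6 from 142438769 to 142456477 (minus strand). Its peak, from 142406190 to 142407191, had the fewest reads of the 11, 41 (29.4 to 55.6), and the lowest score, 59.0, where the score is minus 10 times log10 of the MACS p-value. Its fold enrichment was 5.65, and 3 of the 11 peaks were lower. Its read number was reached by 92.1% of the list. The summit was 32.0 kb beyond the 3′ end of Ldhb, 49.6 kb from the nearest of its 3 starts, inside an intron of Gys2, which encodes liver glycogen synthase. The best X-box match had 4 mismatches, a number reached or bettered in 96.5% of peaks and 75.4% of shifted windows. The list therefore holds no peak inside Ldhb or upstream of it within 50 kb, and the next summit upstream was 103 kb away.

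Slc16a1 (ENSMUSG00000032902.1) encodes MCT1, the widely expressed transporter that takes up lactate and pyruvate. Its single annotated transcript runs from 104442591 to 104462385 on chromosome 3 (plus strand), and no other protein-coding gene overlaps its window. It had the most peaks of the 6 genes and the 3 with the most reads. At the gene itself, the peak from 104442260 to 104443591 covered the transcription start. Its summit at 104442932 was in intron 1, 341 bp after the start, with 150 reads (127 to 176) and a fold enrichment of 23.1. Of all peaks, 15.3% had as many reads and 7.24% had as high a fold enrichment.

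The other 4 Slc16a1 peaks lay beyond the 3′ end of the gene. The summit at 104471074 was 8.69 kb past the end, with 140 reads (118 to 165) and a fold enrichment of 23.4. The summit at 104478209, 15.8 kb past the end, had 55 reads (41.4 to 71.6) and a fold enrichment of 7.06. The summit at 104485207, 22.8 kb past the end and 42.6 kb from the start, had 209 reads (182 to 239), a fold enrichment of 35.1 and a score of 1172. These values were high among all peaks, since 7.17% had as many reads and 1.84% as high a fold enrichment, and the interval of its reads lay above those of the other 10 peaks. The summit at 104510486, 48.1 kb past the end, had 81 reads (64.3 to 101) but a fold enrichment of 5.18, which 90.3% of peaks reached. All 4 summits were intergenic, and for each of the 5 peaks Slc16a1 was the nearest protein-coding start and the only protein-coding gene within 50 kb. The chain of summits extended over 67.6 kb. It did not end at the limit of 50 kb, since the next peak, 56.8 kb past the end of the gene, held 205 reads and was enriched 12.6-fold.

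The Slc16a1 peaks differed in sequence. The window at the start was rich in G and C (76.5%, reached by 0.712% of peaks) with 26 CpG dinucleotides, and its best match had 3 mismatches (T3G, G7C and C9G) with no spacer, 15 bp from the summit. It is shown here as chromosome 3 from 104442832 to 104443031, all of it in intron 1, because it is the only window of the 11 within 1 kb after the start of one of the 6 genes.
Slc16a1 summit window, 150 reads: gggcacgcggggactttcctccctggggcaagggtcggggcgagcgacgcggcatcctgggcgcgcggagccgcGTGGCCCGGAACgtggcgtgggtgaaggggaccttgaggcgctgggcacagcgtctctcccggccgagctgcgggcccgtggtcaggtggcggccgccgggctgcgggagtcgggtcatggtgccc

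The other 4 Slc16a1 windows had 44.5 to 49.5% G and C and at most 3 CpG. The strongest peak had no close match to the full X-box. Its best had 4 mismatches (C6T, G7T, A11G and C12T), 1 bp from the summit. The left half-site of that match is GTTGCT, and this variant of the half-site occurred 4 times in the window, at 1, 18 and 64 bp from the summit on the plus strand and at 76 bp on the minus strand. The copies at 1 and 18 bp lie in a longer stretch of sequence that is repeated directly, so they are not independent occurrences. The window, chromosome 3 from 104485107 to 104485306, is shown with GTTGCT and its reverse complement AGCAAC in capitals.
Slc16a1 summit window, 209 reads: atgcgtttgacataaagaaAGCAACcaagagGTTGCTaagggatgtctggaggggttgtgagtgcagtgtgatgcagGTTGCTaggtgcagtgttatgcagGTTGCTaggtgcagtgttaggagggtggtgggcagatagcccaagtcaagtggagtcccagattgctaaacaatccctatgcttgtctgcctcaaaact

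The search for GTTGCT was chosen after this window had been seen. At least 1 copy was present in 30.8% of all peaks and 9.89% of shifted windows, and at least 3 copies in 0.974% and 0.0472%. Of the 11 peaks described here, 2 held it, with 4 copies at the strongest Slc16a1 peak and 1 at the 80-read peak of Ldha and Ldhc. The canonical half-site GTTGCC, which differs from it in the last base, was present in 26.8% of peaks and 6.39% of shifted windows, and in 2 of the 11. These 2 were the Slc16a7 peak, with 2 copies, and the 46-read peak of Ldha and Ldhc, with 1 copy.

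Slc16a3 (ENSMUSG00000025161.10) encodes MCT4, the transporter used for lactate export by glycolytic cells, and occupies chromosome 11 from 120809794 to 120822182 (plus strand). Its 8 transcripts begin at 8 positions, and none had a peak close by. The only peak, from 120793529 to 120794741, held 68 reads (52.8 to 86.2) with a fold enrichment of 9.21. Its summit was 15.6 kb upstream of the first Slc16a3 start and 22.4 kb upstream of the last. It lay in an untranslated exon of Ccdc57, which encodes a coiled-coil protein, 36 bp after the start of that gene on the opposite strand. The match GTTACCatAGCGAC was 14 bp from the summit and had 3 mismatches (G4A, G7A and A10G). As few were found in 20.2% of shifted windows. The window at this summit held 21 CpG, and 2.64% of peaks had as high a ratio of observed to expected CpG.

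Slc16a7 (ENSMUSG00000020102.8) encodes MCT2, a transporter with high affinity for pyruvate, and is the longest of the 6 genes. It spans 102.5 kb of chromosome 10 (minus strand, 124663520 to 124766019), with no other protein-coding gene in its window. Its single peak, from 124801349 to 124802658, held 104 reads (85.0 to 126) with a fold enrichment of 13.0. The summit was intergenic, 36.1 kb and 56.3 kb upstream of the 2 annotated starts, and the next summit outside the window was 682 kb from the gene. The match GTTGCCaaGGGAAG was 12 bp from the summit. It had an intact left half-site and 2 mismatches (C9G and C12G), the same number as the match upstream of Ldha, with which it shares C9G and the spacer of 2 bases.

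**Figure D1:**
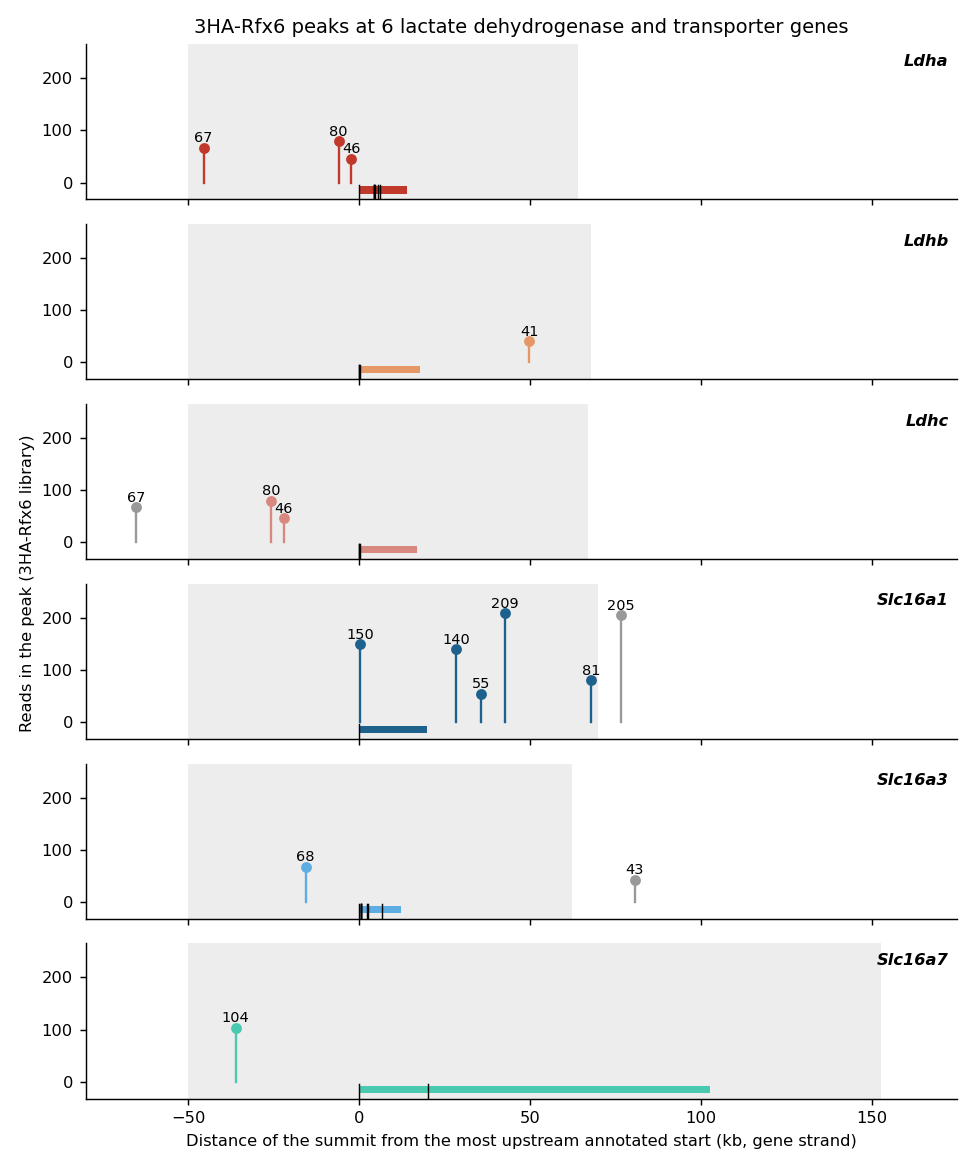
Reads in each 3HA-Rfx6 peak (vertical axis, number) against the distance of its summit from the most upstream annotated start of the gene (horizontal axis, kb along the strand of the gene), 1 panel per gene. Bars are gene bodies, black ticks are annotated starts, grey shading is the gene with 50 kb on each side, and grey points are peaks outside it. The peaks of Ldha and Ldhc with 80 and 46 reads are the same peaks, and the Slc16a1 panel holds the highest coloured points, 209, 150 and 140 reads.

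The disallowed pair, Ldha and Slc16a1, was then set beside the 4 family members. Ldha and Slc16a1 had 8 distinct peaks, with 46 to 209 reads and a median of 80.5. Ldhb, Ldhc, Slc16a3 and Slc16a7 had 5, with 41 to 104 reads and a median of 68. Of the latter, 2 were those shared with Ldha, which leaves 3 peaks not counted for the pair. Per 100 kb of window, Slc16a1 had 4.17 peaks and Ldha 2.63, followed by Ldhc with 1.71, Slc16a3 with 0.890, Ldhb with 0.850 and Slc16a7 with 0.494. The median gene had 0.976. At least the density of Slc16a1 was found in 13.4% of protein-coding genes and that of Ldha in 26.8%. Of the 8 peaks of the pair, 5 belonged to Slc16a1. The rest were the 2 shared with Ldhc and the Hps5 peak, which by position belonged to other genes. Without the Hps5 peak, Ldha had the same peaks as Ldhc. The Ldha window also held 5 other protein-coding genes, and that of Slc16a1 held 0.

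By distance to a start, Slc16a1 and Ldha again came first, while the order of the other 4 changed. The nearest summit was 0.341 kb from an annotated start for Slc16a1, 2.32 kb for Ldha, 15.6 kb for Slc16a3, 22.1 kb for Ldhc, 36.1 kb for Slc16a7 and 49.6 kb for Ldhb. For Ldha the distance ran from the 46-read peak, enriched 5.18-fold, to Ldha-003, the most upstream of its 7 starts. The stronger 80-read summit was 5.97 kb from Ldha-003 and 10.3 kb from Ldha-001. Within 10 kb of a start, both disallowed genes and 0 of the 4 others had a summit, against 39.3% of all protein-coding genes. Within 1 kb only Slc16a1 had one, against 23.7% of genes. With 2 and 4 genes of 1 library, which are not replicates, no test was made.

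The order by the highest peak was different. It was Slc16a1 (209 reads), Slc16a7 (104), Ldha and Ldhc (80, the same peak), Slc16a3 (68) and Ldhb (41). The counting intervals of Slc16a7, Ldha and Slc16a3 overlap one another, and so do those of Slc16a3 and Ldhb. Slc16a1 was above all others. A highest peak of at least 209 reads was found near 14.4% of genes, and one of at least 80 reads near 48.1%. The order of Ldha and Slc16a7 depended on the distance allowed. Within 100 kb the highest peak of Ldha had 147 reads and that of Slc16a7 104, and within 10 or 20 kb Ldha had its peak of 80 reads and Slc16a7 had none.

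**Figure D2:**
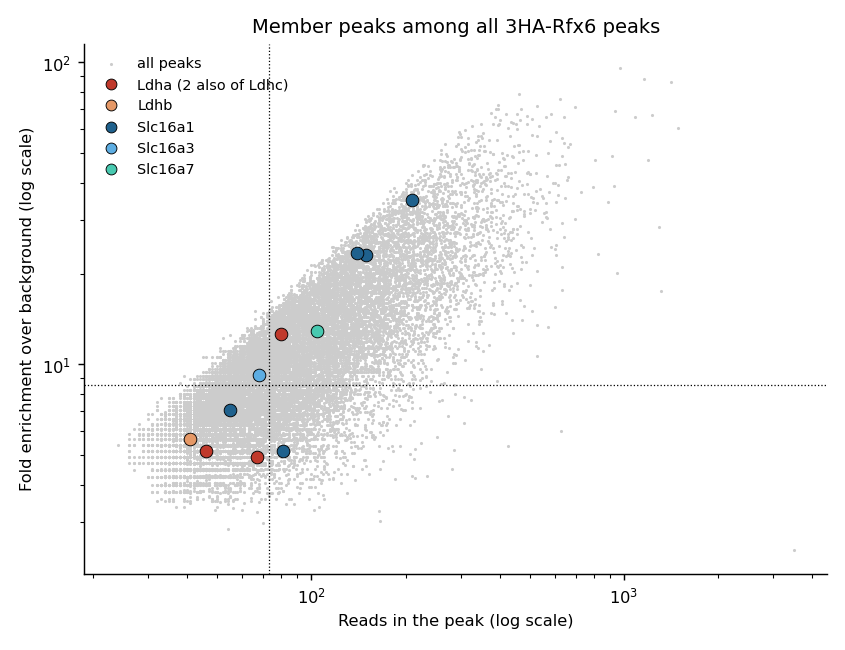
Fold enrichment over background against reads in the peak, both on log scales, for all 23308 peaks (grey) and the 11 peaks of the 6 genes (coloured). Dotted lines are the medians of all peaks, 73 reads and a fold enrichment of 8.54. The 3 strongest Slc16a1 peaks lie to the upper right, and the Ldhb peak and the 46-read Ldha peak lie to the lower left.

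Across the 11 summits, a match with at most 3 mismatches was present in 8, against 58.7% of all peaks, and one with at most 2 mismatches in 2, against 19.8% of all peaks. With 11 peaks, both counts lie near the background shares and single out nothing in the group. The 2 closest matches were at the peaks of Ldha (with Ldhc) and Slc16a7. Matches with 0 or 1 mismatch, seen in 5.60% of all peaks, were absent. Of the 3 peaks with 4 mismatches, 2 were the Slc16a1 peaks of 140 and 209 reads and the other was the Ldhb peak. Over all peaks, the median read number was 78 with 2 mismatches, 73 with 3 and 70 with 4.

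**Figure D3:**
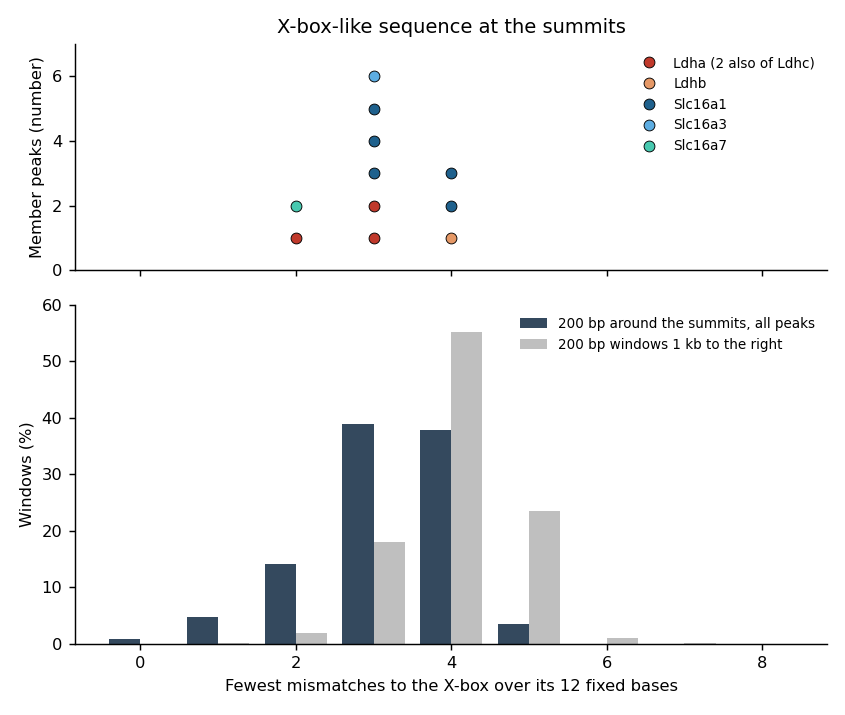
Upper panel, number of peaks of the 6 genes by the fewest mismatches to the X-box in the 200 bp around the summit, 1 point per peak. Lower panel, share of windows (%) with each number for all 23308 summits (dark) and for windows 1 kb to the right (grey). The 11 peaks have 2, 3 or 4 mismatches, where most of the other peaks also lie.

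Other short motifs, searched on both strands of the same windows, were few. CATCTG, an E-box of the NeuroD1 type, was present at the Slc16a7 peak and at the 140-read Slc16a1 peak (16.1% of all peaks and 15.6% of shifted windows). CCGGAA, the ETS core, was present at the Slc16a1 start and at the Hps5 peak (5.08% of all peaks and 2.83% of shifted windows). At both it lies within the bases of the best X-box match, so it is not a separate stretch of sequence. CCAAT was present at the 46-read peak of Ldha and Ldhc (16.9% of all peaks and 22.9% of shifted windows). TGTTTAC (FOX), TGACG (CRE half-site) and TAATTA (homeodomain) were in 0 of the 11 windows, and in 2.45%, 9.47% and 2.02% of all peaks, respectively.

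The remaining genes of lactate and pyruvate handling gave a wider frame. Of 36 listed genes, 30 had a summit within 50 kb, that is 10 of 11 other SLC16 genes, 0 of 1 other lactate dehydrogenase (Ldhd), 4 of 5 partners and other lactate proteins, 8 of 11 genes of pyruvate fate and 8 of 8 genes of the NADH shuttles. The 30 genes are 83.3% of the list, against 67.8% of all protein-coding genes. The median number of peaks was 2, against 1 for all protein-coding genes, and 14 of the 36 (38.9%) had a summit within 1 kb of a start, against 23.7% of all protein-coding genes. In the SLC16 family, a peak at the start was not particular to Slc16a1. Slc16a6 had one of 95 reads 352 bp after a start, Slc16a9 one of 106 reads after 394 bp and Slc16a12 one of 84 reads after 353 bp. The fold enrichments of these 3 peaks were 7.53, 6.12 and 7.30, lower than the 23.1 at Slc16a1.

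The highest peaks of the list were near Bsg, Pcx and Pdhx. Bsg encodes basigin, the chaperone that brings MCT1 and MCT4 to the membrane, and had 8 peaks, the highest with 625 reads and a fold enrichment of 75.4. That summit was 49.3 kb upstream of Bsg and nearer to the start of Odf3l2, and the peak closest to a Bsg start, 889 bp after it, held 47 reads. Pcx encodes pyruvate carboxylase, through which β cells send much of their pyruvate into the citric acid cycle. It also had 8 peaks. The highest, inside Pcx but nearer to the start of Lrfn4, held 604 reads and was enriched 24.9-fold, and that closest to a Pcx start, 77 bp after it, held 51 reads. Pdhx, which encodes a component of the pyruvate dehydrogenase complex, had its highest peak 47.8 kb downstream, with 246 reads and a fold enrichment of 39.6, and there the nearest coding start was that of Cd44, 71.7 kb away.

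The peaks nearest to a start in the list were at Gpd2, Pdk1 and Mpc2. The mitochondrial glycerol-phosphate dehydrogenase gene Gpd2 had a summit 22 bp from a start with 74 reads. Pdk1, a kinase that inhibits pyruvate dehydrogenase, had one at 35 bp with 117 reads. Mpc2, which encodes a subunit of the mitochondrial pyruvate carrier and is named Brp44 in the annotation, had one at 40 bp with 61 reads. The peak at the start of Slc16a1 held 150.

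**Figure D4:**
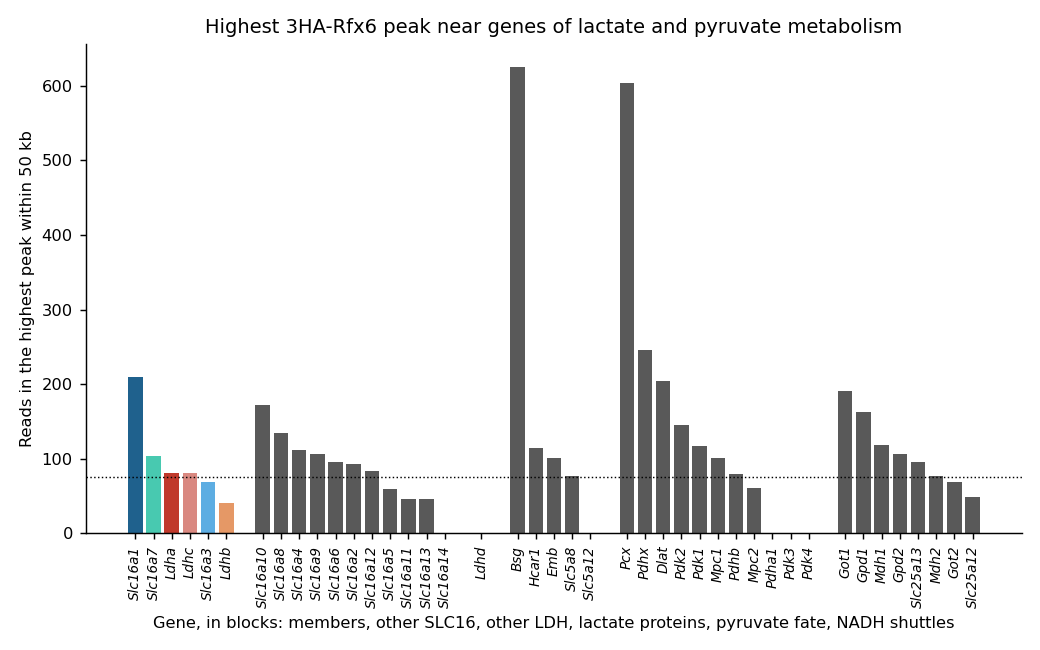
Reads in the highest 3HA-Rfx6 peak within 50 kb of each gene (bars from 0), for the 6 genes described (coloured) and the 36 listed genes in blocks (grey). Genes with no bar have no peak in the window, and the dotted line is the median over all protein-coding genes, 75 reads, with genes without a peak counted as 0. Bsg (625) and Pcx (604) have the highest bars, and Slc16a1 (209) has the highest of the coloured ones.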

How the data were processed

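Per the labels, anti-HA ChIP-seq was made from 3HA-Rfx6 transfected and from control Min6b1 cells, 1 library each, with 50-base reads. The submitters' processing notes name CASAVA 1.8.2, Bowtie, MACS 1.4.2 and mm9. The authors deposited, for each peak, 4 values: a raw read count from the transfected sample, the fold enrichment (a ratio to the local background estimated by MACS), a score equal to minus 10 log10 p, and the FDR as a percent. The smaller library was scaled to the larger one, with 9.52 times as many retained reads in ChIP as in control. Fold enrichments carry no interval, and the read intervals do not cover counting error in the control. The list holds only regions past the MACS cutoff of 1e-05, and its smallest peak has 24 reads. Control values were not analysed here.

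Summits were assigned to GENCODE M1 genes, and sequence was read from NCBIM37, in which all 23308 peaks fall within their chromosomes. Read intervals are 95% exact Poisson. Computation used matplotlib 3.10.9, scipy 1.17.1, pandas 2.3.3 and numpy 2.4.6 in Python 3.11.15. On simulated data, 100% of 400 planted X-boxes and 100% of 200 planted gene windows were recovered. The genes, lists and motifs were chosen with earlier results of these data known. Named genes were the 6 members, their peak neighbours, and from the list the 3 with the highest peak and the 3 with the peak nearest a start; Slc16a6, Slc16a9, Slc16a12 and Ldhd were named after their values were seen. Of 37 listed genes, 36 matched the annotation, some by older symbols. Other distances, peak limits and motif settings were tried.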

Additional observations from a re-analysis of the deposited data

How the results depend on the processing

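No paired analysis was possible because the transfected and control samples are single libraries, which also leaves no replicate to omit. With a distance of 10 kb in place of 50 kb, 2 of the 6 genes had a peak, with 4 peaks for Ldha and Slc16a1 and 0 for the 4 family members. With 20 kb, 3 genes had a peak, with 5 and 1 peaks. With the 50% of peaks with the highest scores, and also with a fold enrichment of at least 10, the pair had 4 peaks and the family members 2. In both settings Slc16a1 had 3 peaks, and Ldha, Ldhc and Slc16a7 had 1 each. The peak of Ldha and that of Ldhc were the same, so Ldha did not stand apart from Ldhc or Slc16a7. An FDR of at most 1% left 10 of all peaks, and then 0 genes, 0 peaks of the pair and 0 of the family members. Among the listed pathway genes, 18 had a peak with a fold enrichment of at least 10 and 1 with an FDR of at most 1%. The share of all protein-coding genes was not computed under these changed distances and limits. The gene counts given here therefore have no background to be judged against. X-box-like matches were at 5 of the 11 summits in 100 bp windows, at 5 with a spacer of 2 bases only and at 2 with at most 2 mismatches. Apart from the FDR limit, these changes follow from the smaller windows and stricter limits. Among the 11 peaks the FDR was lowest, 1.90%, at the peak with the fewest reads and highest, 5.48%, at that with the most. The loss of all 11 under the FDR limit therefore does not mark them as weak. The other alternatives (100 kb, 50 kb from a start, any overlapping base, 400 bp windows, at most 4 mismatches) moved these counts by no more than 1.5 times. Gene by gene, however, 100 kb took Slc16a3 from 1 peak to 2 and the highest peak of Ldha from 80 to 147 reads, above the 104 of Slc16a7. Ranking by fold enrichment or score at 50 kb chose the same highest peak for each gene. Peaks with too few reads to pass the cutoff could not be seen at this depth.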
